A study of Mus musculus with 15 samples.

Results

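The endoderm markers are 10 mouse genes taken by symbol: the transcription factor genes Gata4, Gata6, Sox17, Sox7, Foxa2 and Hnf4a, the receptor gene Cxcr4, the laminin chain genes Lama1 and Lamb1, and the endocytic adaptor gene Dab2. They are 10 of the 23845 genes in the files. Expression was measured by poly(A) RNA sequencing in E14 mouse embryonic stem cells (mESCs) transfected with small interfering RNA (siRNA) by Lipofectamine 2000. There were 5 groups of 3 biological replicates: the control EGFPKD, in which the siRNA was aimed at EGFP, and Ddx10KD, Ddx24KD, Ddx27KD and Ddx54KD, in which it was aimed at 1 of 4 DEAD-box RNA helicases. All groups were grown on 0.2% gelatin, received 400 ng of siRNA for 16 h and were harvested at 48 h. No genetic change is given in the labels for any group, and each knockdown left part of its target's RNA. The series asks what proteins found at R-loops do for ribosomal RNA processing and gene expression. Its 4 comparisons of a knockdown with EGFPKD all use the same 3 control libraries.

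Endoderm forms more than once in the early mouse embryo. Primitive endoderm separates from the epiblast in the blastocyst under fibroblast growth factor (FGF) and ERK signalling, is driven by Gata6, Gata4, Sox17 and Sox7, and lays down a laminin-rich basement membrane with Lama1, Lamb1 and the sorting adaptor Dab2. Definitive endoderm arises later from the primitive streak under Nodal signalling, is marked by Sox17, Foxa2 and surface Cxcr4, and gives gut, liver and pancreas, where Hnf4a is a leading regulator. Cultured mESCs carry little of these messages, apart from laminin chains, which they make themselves.

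Hnf4a and Cxcr4 were the members that rose in every knockdown, so the bases in front of their starts are shown first. Hnf4a lies on the plus strand at chr2:163506808-163572910 (mm10, GENCODE) and has a distal and a proximal promoter, and the gene model counted in the files was a single transcript that starts at the proximal one. Cxcr4 lies on the minus strand at chr1:128588199-128592293. The 250 bases before each start, from RefSeq (GRCm38.p6), run 5′ to 3′ on the gene's strand, at chr2:163546905-163547154 for Hnf4a proximal, chr2:163506607-163506856 for Hnf4a distal and chr1:128592300-128592549 for Cxcr4. Capitals mark matches to the motifs searched on both strands.
Hnf4a proximal: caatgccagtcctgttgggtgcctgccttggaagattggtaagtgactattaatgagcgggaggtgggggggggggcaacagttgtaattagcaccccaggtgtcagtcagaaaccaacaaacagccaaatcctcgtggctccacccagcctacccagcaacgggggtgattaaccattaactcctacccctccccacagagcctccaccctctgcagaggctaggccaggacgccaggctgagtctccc
Hnf4a distal: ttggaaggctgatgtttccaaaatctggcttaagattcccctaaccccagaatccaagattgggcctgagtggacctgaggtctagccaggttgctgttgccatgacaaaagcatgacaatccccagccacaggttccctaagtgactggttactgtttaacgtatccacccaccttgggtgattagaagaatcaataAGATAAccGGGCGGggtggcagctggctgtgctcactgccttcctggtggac
Cxcr4: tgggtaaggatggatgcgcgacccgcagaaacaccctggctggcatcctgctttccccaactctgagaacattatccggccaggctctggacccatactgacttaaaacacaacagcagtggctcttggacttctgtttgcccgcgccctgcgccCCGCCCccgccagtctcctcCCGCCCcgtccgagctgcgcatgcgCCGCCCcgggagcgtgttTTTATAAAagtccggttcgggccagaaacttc
RefSeq promoter entries were matched for 5 of the 10 members (Cxcr4, Dab2, Foxa2, Hnf4a and Lamb1). The motifs were the core bound by GATA factors (AGATAA, in 9.99% of 32851 promoters of this length), the SOX core (ATTGTT, 9.42%), the forkhead core (TGTTTAC, 3.17%), a TATA box (TATAAA, 12.4%) and a GC box (GGGCGG, 32.7%).
The proximal Hnf4a promoter held none of these letters in this window. The distal Hnf4a promoter held a match for GATA factors 52 to 47 bases before its RefSeq start and a GC box 44 to 39 bases before that start. This window ends inside the GENCODE span of the gene given above, so the 2 annotations place the distal start differently. The Cxcr4 promoter held overlapping TATA matches, 32 to 27 and 30 to 25 bases before the start, and GC boxes at 95 to 90, 75 to 70 and 50 to 45. These are matches of letters, and no binding was measured.

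The 15 libraries held between 26836946 and 27708782 estimated read counts each, and 14335 genes passed the filter on low counts and were tested. In its own knockdown each target fell on the log2 scale: Ddx10 fell by 2.43, Ddx24 by 1.70, Ddx27 by 2.14 and Ddx54 by 1.84. All 12 stem cell markers checked had counts in every library, with summed levels of 6827 to 7128 CPM (read counts scaled to library size) in EGFPKD and 6060 to 6819 in the knockdowns.

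Of the 10 members, 9 passed the filter and Foxa2 did not. A gene was called changed when its Benjamini-Hochberg adjusted p in edgeR's quasi-likelihood test was under 0.05. In Ddx10KD 3 of the 9 rose and 2 fell, where 31.0% of all tested genes were called. In Ddx24KD 2 rose and 2 fell, against a background of 28.1%. In Ddx27KD 2 rose and 2 fell, against 33.4%, and in Ddx54KD 2 rose and 2 fell, against 24.3%. With the replicate number as a block in the fit, 3 rose and 3 fell in Ddx10KD (background 44.0%), 2 and 2 in Ddx24KD (41.2%), 3 and 2 in Ddx27KD (45.8%), and 2 and 3 in Ddx54KD (38.9%). The members' median log2 change was 0.08, 0.15, 0.42 and 0.06 in Ddx10KD, Ddx24KD, Ddx27KD and Ddx54KD, and that of all tested genes was 0.01, 0.00, 0.01 and 0.01. The same 4 members were called in every knockdown: Hnf4a and Cxcr4 rose and Sox7 and Lama1 fell (4 of 9, where 16.6% of all tested genes were called the same way in all 4). The members therefore moved in both directions, and the primitive endoderm regulators Gata4 and Sox17 passed the test in none of the 4. Below, some members are described as having knockdown libraries that do not overlap the control libraries. The share of all tested genes that separate in this way was not counted.

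**Figure D1:**
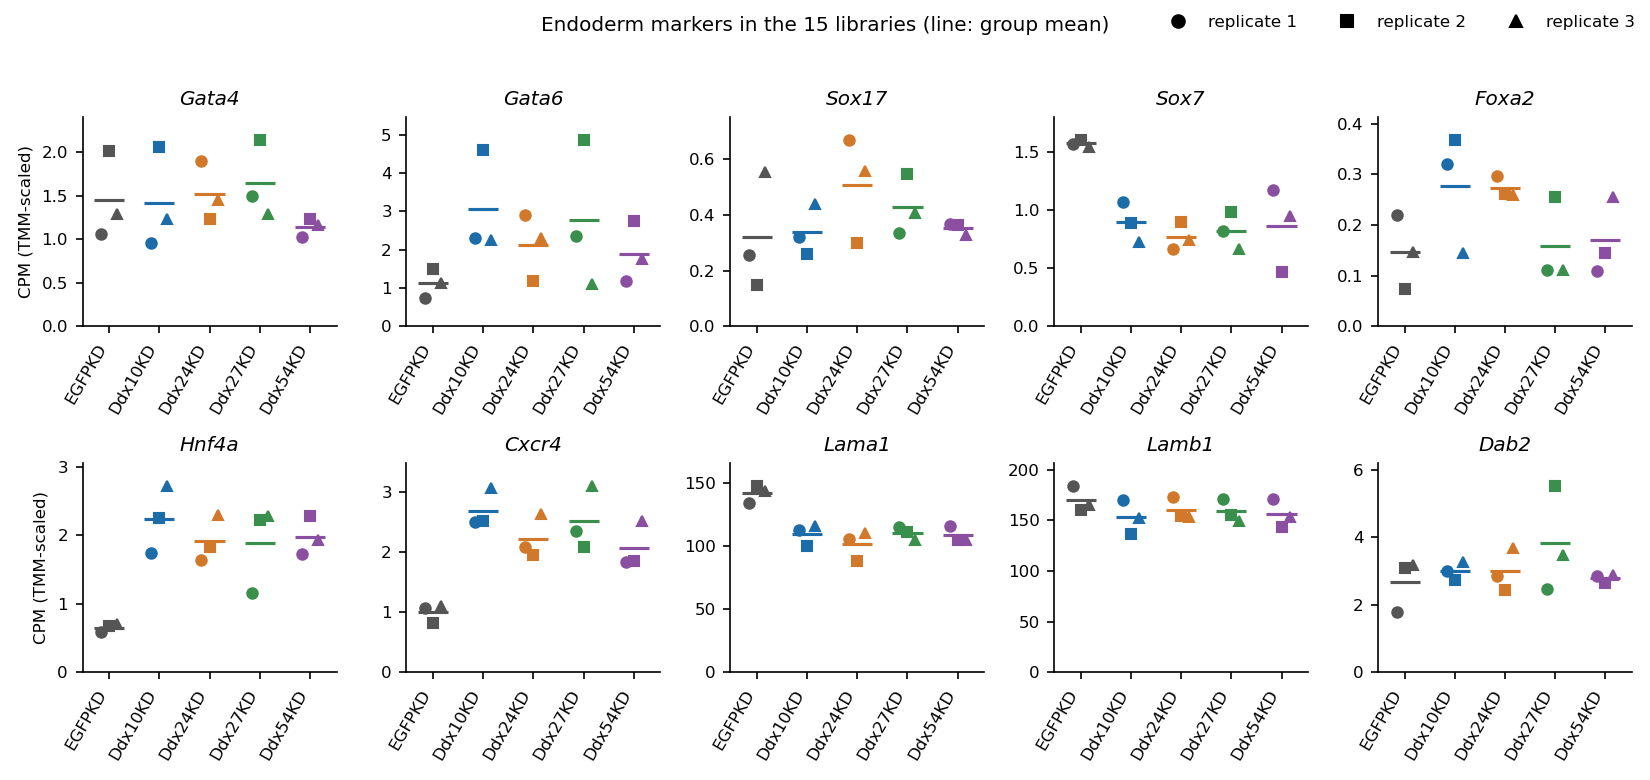
Level of each of the 10 endoderm markers in every library, in CPM scaled by TMM on a linear axis that starts at 0; symbols give the replicate number and horizontal lines the group means. Hnf4a and Cxcr4 sit higher, and Sox7 and Lama1 lower, in all 12 knockdown libraries than in any of the 3 EGFPKD libraries. How many of all tested genes separate in this way was not counted.

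Per length of transcript, the laminin genes stood far above the other members. Mean level over the 15 libraries was 56.2 TPM (a level scaled to transcript length and library size; range 47.9 to 64.7) for Lamb1 and 24.3 TPM (18.2 to 30.5) for Lama1. Cxcr4 followed at 2.43 TPM, Dab2 at 1.46 and Gata6 at 1.41. Gata4 (0.867 TPM), Hnf4a (0.816), Sox7 (0.617), Sox17 (0.247) and Foxa2 (0.205) were each under 1 TPM. The stem cell genes Pou5f1, Sox2 and Nanog stood at 1654, 498 and 589 TPM in EGFPKD. On the log2 scale Nanog fell by 0.47, 0.32 and 0.43 in Ddx10KD, Ddx24KD and Ddx27KD, and with the block also in Ddx54KD (-0.19, edgeR adjusted p = 0.00581). Sox2 rose by 0.24, 0.26 and 0.23 in Ddx24KD, Ddx27KD and Ddx54KD, and with the block also in Ddx10KD (0.12, edgeR adjusted p = 0.0157). Pou5f1 fell by 0.18 and 0.16 in Ddx27KD and Ddx54KD, and with the block also in Ddx10KD and Ddx24KD (edgeR adjusted p = 0.0279 and 0.0176).

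Among the transcription factors, Hnf4a, a nuclear receptor that directs visceral endoderm and later liver genes, showed the largest fitted fold of any member in each knockdown. On the log2(TPM + 0.5) scale, which damps low levels, its rise was smaller than that of Cxcr4 in Ddx10KD (0.97 and 1.17), Ddx24KD (0.80 and 0.89) and Ddx27KD (0.78 and 1.05). Its level was 0.585, 0.672 and 0.699 CPM in EGFPKD replicates 1 to 3. It was 1.74, 2.25 and 2.73 CPM in Ddx10KD and 1.64, 1.83 and 2.30 CPM in Ddx24KD. In Ddx27KD it was 1.16, 2.22 and 2.29 CPM, and in Ddx54KD 1.72, 2.28 and 1.93 CPM. No knockdown library came down to the highest control library, and the lowest of the 12 was Ddx27KD replicate 1. The fitted log2 change was 1.77 ± 0.28 (SE) in Ddx10KD, 1.55 ± 0.28 in Ddx24KD, 1.53 ± 0.28 in Ddx27KD and 1.59 ± 0.28 in Ddx54KD, which is 3.42-, 2.93-, 2.89- and 3.02-fold, with edgeR adjusted p of 0.000180, 0.000761, 0.000644 and 0.000720. Ordered by mean, Ddx10KD (2.24 ± 0.493 CPM, SD, n = 3) stood above Ddx54KD (1.98 ± 0.280), Ddx24KD (1.92 ± 0.342), Ddx27KD (1.89 ± 0.635) and EGFPKD (0.652 ± 0.0598). Neighbouring knockdowns in that order differed by less than the larger of their SDs. These are small counts, 16 to 19 per control library and 31 to 75 per knockdown library. In bulk RNA, more cells with the message and more message per cell cannot be told apart, here and for every gene below. Hnf4aos, an antisense gene that overlaps the first part of Hnf4a, was listed at 0 in all 15 libraries.

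Sox7, an SRY-box factor of the same subgroup as Sox17 and a marker of primitive and parietal endoderm and of endothelium, moved the other way. It stood at 1.57, 1.61 and 1.55 CPM in the EGFPKD libraries. The knockdown libraries ranged from 0.728 to 1.07 CPM in Ddx10KD, 0.669 to 0.895 in Ddx24KD, 0.665 to 0.982 in Ddx27KD and 0.470 to 1.17 in Ddx54KD. The control libraries lay close together and all 12 knockdown libraries lay below them, Ddx54KD replicate 2 being the lowest. These are small counts, 43, 43 and 42 in EGFPKD and 13 to 32 per knockdown library. At such counts, counting error alone is wider than the spread of these control libraries. Sox7 fell by 0.81 ± 0.26 on the log2 scale in Ddx10KD (edgeR adjusted p = 0.0270), by 1.03 ± 0.27 in Ddx24KD (0.00937), by 0.93 ± 0.27 in Ddx27KD (0.0128) and by 0.86 ± 0.26 in Ddx54KD (0.0251). Means ran from 1.57 ± 0.0303 CPM in EGFPKD to 0.893 ± 0.170 in Ddx10KD, 0.863 ± 0.359 in Ddx54KD, 0.823 ± 0.159 in Ddx27KD and 0.769 ± 0.115 in Ddx24KD, and neighbouring knockdowns differed by less than their SDs. In Ddx10KD and Ddx54KD the call was lost without any 1 of the 3 EGFPKD libraries or without replicate 2 or 3 of the knockdown, and in Ddx27KD without Ddx27KD replicate 3 (0.0554). The highest adjusted p among these fits was 0.111. The direction was the same in all of them, and without Ddx54KD replicate 2 the fall in Ddx54KD was 0.57.

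Gata6, the factor that starts the primitive endoderm programme, had the widest standard error of the called members. It stood at 0.731, 1.49 and 1.14 CPM in EGFPKD and at 2.31, 4.61 and 2.26 CPM in Ddx10KD. The values were 2.90, 1.19 and 2.30 CPM in Ddx24KD, 2.35, 4.88 and 1.11 in Ddx27KD, and 1.17, 2.75 and 1.75 in Ddx54KD. All 3 Ddx10KD libraries were above the control libraries, while in each of the other knockdowns at least 1 library lay inside the control range. Gata6 rose in Ddx10KD by a log2 change of 1.44 ± 0.49 (edgeR adjusted p = 0.0351). The changes in Ddx24KD (0.93 ± 0.51, 0.196), Ddx27KD (1.31 ± 0.50, 0.0529) and Ddx54KD (0.75 ± 0.52, 0.318) did not pass the test. With the replicate number as a block, adjusted p was 0.00684 in Ddx10KD, 0.0678 in Ddx24KD, 0.0154 in Ddx27KD and 0.183 in Ddx54KD, so the rise was also called in Ddx27KD. The Ddx27KD rise was also called with no count filter (0.0388), when only Ddx27KD and EGFPKD entered the fit (0.0411) and without Ddx10KD replicate 2, Ddx24KD replicate 2 or Ddx27KD replicate 3, and it ran from 0.62 to 1.69 over the 15 fits that each leave out 1 library. The Ddx10KD call was lost without EGFPKD replicate 1, EGFPKD replicate 3 or Ddx10KD replicate 2 (adjusted p from 0.0157 to 0.174 over such fits). Set against the control library of the same number, Gata6 was 3.16, 3.09 and 1.98 times as high in Ddx10KD and 1.60, 1.84 and 1.53 times as high in Ddx54KD. The ratios were 3.97, 0.799 and 2.02 in Ddx24KD and 3.22, 3.26 and 0.971 in Ddx27KD, with 1 replicate of each below 1. Gata6os, which overlaps the 5′ end of Gata6 on the other strand, was not used here, and the labels do not say that libraries were stranded, so reads of both cannot be told apart.

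Gata4, Sox17 and Foxa2, which act with Gata6 in primitive endoderm or with each other in definitive endoderm, gave no call with all 15 libraries. Gata4 was 1.06, 2.02 and 1.29 CPM in EGFPKD and ranged from 0.960 to 2.15 CPM in the 12 knockdown libraries, so the groups overlapped throughout. Its log2 changes were -0.04, 0.07, 0.18 and -0.35 in Ddx10KD, Ddx24KD, Ddx27KD and Ddx54KD, each with an SE of 0.30 or 0.31 (edgeR adjusted p from 0.452 to 0.944). Sox17 was 0.256, 0.149 and 0.552 CPM in EGFPKD and 0.258 to 0.669 CPM in the knockdowns, from 4 to 18 counts per library. The control libraries alone spanned most of that range, and the log2 changes of 0.08, 0.66, 0.42 and 0.14 had SEs of 0.42 to 0.44 (edgeR adjusted p from 0.257 to 0.912). Without EGFPKD replicate 3, Sox17 was called higher in Ddx24KD (1.30, adjusted p = 0.0490). Foxa2 had 6, 2 and 4 counts in EGFPKD, and 2 to 10 counts over all libraries. Summed over replicates, its 12 control counts stood against 23 in Ddx10KD, 22 in Ddx24KD, 13 in Ddx27KD and 14 in Ddx54KD. The ratio was 1.93 (exact binomial 95% interval 0.924 to 4.27) in Ddx10KD and 1.86 (0.880 to 4.12) in Ddx24KD, so a change was not detectable at this depth; these intervals cover counting error only.

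**Figure D2:**
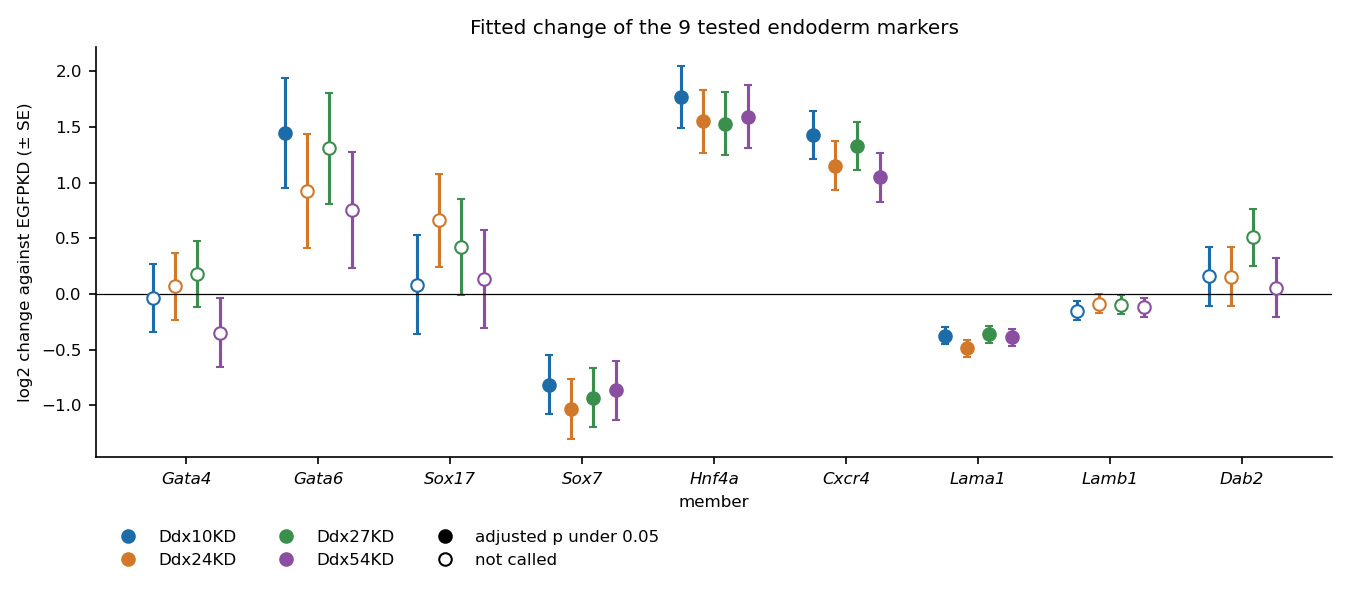
Fitted log2 change of the 9 tested members in each knockdown against EGFPKD, with bars of 1 SE; filled points have an edgeR adjusted p under 0.05. Hnf4a and Cxcr4 are filled above 0 and Sox7 and Lama1 below 0 in all 4 knockdowns, and Gata6 is filled in Ddx10KD alone.

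Cxcr4, the chemokine receptor used to sort definitive endoderm from differentiating stem cells, rose in every knockdown. It stood at 1.06, 0.822 and 1.10 CPM in EGFPKD. The values were 2.49, 2.51 and 3.06 CPM in Ddx10KD, 2.08, 1.94 and 2.64 in Ddx24KD, 2.35, 2.07 and 3.10 in Ddx27KD, and 1.83, 1.84 and 2.52 in Ddx54KD. Every knockdown library was above every control library, and replicate 3 was the highest of each group, EGFPKD included. The log2 change was 1.43 ± 0.22 in Ddx10KD (edgeR adjusted p = 0.000133), 1.15 ± 0.22 in Ddx24KD (0.00115), 1.33 ± 0.22 in Ddx27KD (0.000232) and 1.05 ± 0.22 in Ddx54KD (0.00294), or 2.69-, 2.22-, 2.51- and 2.07-fold. Group means ran from Ddx10KD (2.68 ± 0.322 CPM) through Ddx27KD (2.51 ± 0.532), Ddx24KD (2.22 ± 0.367) and Ddx54KD (2.06 ± 0.392) to EGFPKD (0.995 ± 0.152), and neighbouring knockdowns differed by less than the larger of their SDs. The ligand gene Cxcl12 did not pass the test in any knockdown (log2 changes 0.53, 0.66, 0.56 and 0.59), and Ackr3, the scavenger receptor for the same ligand, fell by 0.52 in Ddx10KD and by 0.49 in Ddx27KD and did not pass in Ddx24KD (-0.32) or Ddx54KD (-0.26). Cxcl12 and Ackr3 are named here after their values were seen.

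Lama1, which encodes the alpha chain of the first laminin trimer of the embryo, fell in every knockdown and had 2371 to 3964 counts per library. It stood at 134, 148 and 143 CPM in EGFPKD. The values were 113, 100.04 and 116 CPM in Ddx10KD, 105, 88.4 and 110.2 in Ddx24KD, 115, 111 and 105 in Ddx27KD, and 116, 105 and 105 in Ddx54KD. The highest knockdown library lay below the lowest control library. The fall on the log2 scale was small and precise: Lama1 fell by 0.37 ± 0.08 in Ddx10KD (edgeR adjusted p = 0.00170), by 0.49 ± 0.08 in Ddx24KD (0.000238), by 0.36 ± 0.08 in Ddx27KD (0.00187) and by 0.39 ± 0.08 in Ddx54KD (0.00179), which left 0.77, 0.71, 0.78 and 0.76 of the control level. None of these reaches a 1.5-fold change. The means of 111 ± 5.13 CPM in Ddx27KD, 109.6 ± 8.45 in Ddx10KD, 108 ± 6.24 in Ddx54KD and 101 ± 11.4 in Ddx24KD differed between neighbours by less than the larger SD, and all lay under 142 ± 6.96 CPM in EGFPKD.

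Lamb1, the beta chain of the same trimer, changed less. Its level was 185, 160.0 and 165 CPM in EGFPKD, and the knockdown libraries ran from 137 to 173 CPM, overlapping the control group in every comparison. The log2 changes of -0.15, -0.08, -0.10 and -0.12 in Ddx10KD, Ddx24KD, Ddx27KD and Ddx54KD, each ± 0.09, did not pass the test (edgeR adjusted p = 0.201, 0.499, 0.417 and 0.336). Replicate 1 was the highest library of Lamb1 in all 5 groups. With the replicate number as a block, Lamb1 fell in Ddx10KD (adjusted p = 0.00399) and in Ddx54KD (0.0200) and did not pass in Ddx24KD (0.0939) or Ddx27KD (0.0538). Against the control library of the same number, Lamb1 lay between 0.85 and 0.97 in all 12 knockdown libraries, and Lama1 between 0.60 and 0.86.

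Dab2, the clathrin adaptor that primitive endoderm uses to sort proteins at its surface, was 1.79, 3.10 and 3.16 CPM in EGFPKD. Its knockdown libraries ran from 2.42 to 3.67 CPM, apart from Ddx27KD replicate 2 at 5.53 CPM. The groups overlapped, and the log2 changes of 0.16, 0.15, 0.51 and 0.06, each ± 0.26, did not pass the test (edgeR adjusted p from 0.140 to 0.903). Without Ddx27KD replicate 1, Dab2 was called higher in Ddx27KD (0.75, adjusted p = 0.0316). Against same-number controls, Dab2 was 1.38 to 1.67 times as high in replicate 1 of all 4 knockdowns and 0.78 to 0.88 times as high in replicate 2 of all but Ddx27KD, where it was 1.78.

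**Figure D3:**
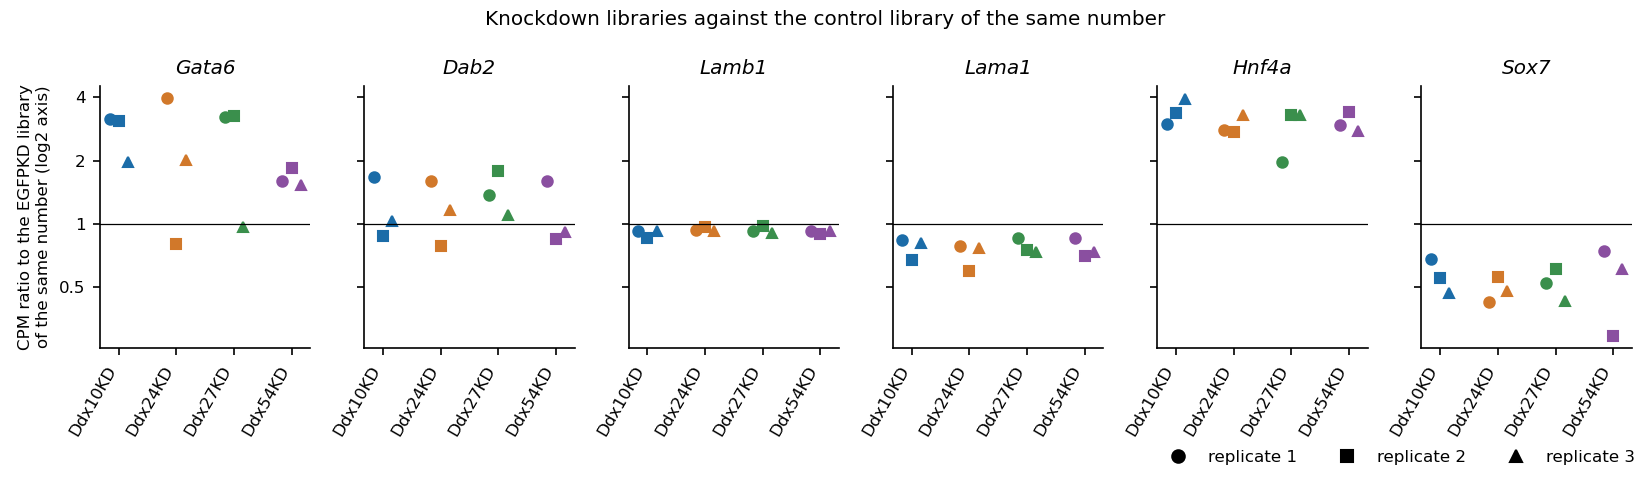
Ratio of each knockdown library to the EGFPKD library of the same replicate number for 6 members, on a log2 axis; symbols give the replicate number and the line marks a ratio of 1. All 12 Lamb1 ratios sit just under 1, while Gata6 and Dab2 ratios lie on both sides of it.

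Other laminin chains are described as a family chosen after their values were seen, apart from Lamc1. Lamc1, the gamma chain that completes the trimer with Lama1 and Lamb1, was the most abundant at 182 TPM in EGFPKD, and fell by 0.31, 0.33, 0.33 and 0.41 on the log2 scale in Ddx10KD, Ddx24KD, Ddx27KD and Ddx54KD. Lama5, an alpha chain of epithelial basement membranes at 61.5 TPM in EGFPKD, where Lama1 had 29.7 and Lamb1 58.9, rose by 0.34, 0.26, 0.36 and 0.25. Lamb3, another beta chain, at 0.457 TPM in EGFPKD, rose by 0.98, 1.40, 1.17 and 1.09. Lama3, another alpha chain, did not pass the test in any knockdown, though with the replicate block it fell in Ddx24KD (adjusted p = 0.0364). Lamb2 fell by 0.29 in Ddx24KD and by 0.22 in Ddx27KD, and did not pass in Ddx10KD (-0.17) or Ddx54KD (-0.17) unless the block was used (adjusted p = 0.0120 and 0.0132). The alpha chains Lama1 and Lama5 therefore changed in opposite directions in all 4 comparisons.

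**Figure D4:**
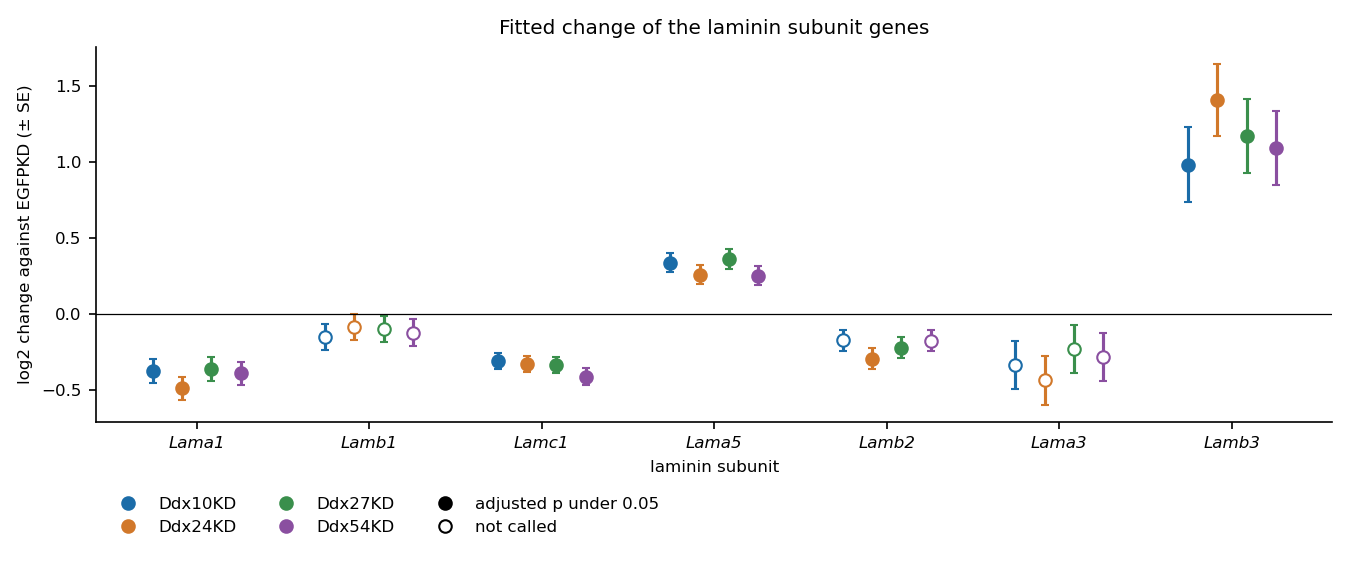
Fitted log2 change of 7 laminin chain genes in each knockdown against EGFPKD, with bars of 1 SE; filled points have an edgeR adjusted p under 0.05. Lama1 and Lamc1 are filled below 0 and Lama5 and Lamb3 above 0 in all 4 knockdowns.

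The knockdowns were then set against each other, in 6 pairs and 54 tests of the 9 members, adjusted over all tested genes. None of the 54 was called by edgeR or limma-voom, and none of the 37 to which DESeq2 gave an adjusted p was called by it. By each of these tools none of the 54 had an unadjusted p under 0.05, and the smallest edgeR p was 0.0705 for Cxcr4 (adjusted p = 0.393). With the replicate block none was called and 1 had an unadjusted p under 0.05. Over all tested genes, 0.412% were called for Ddx10KD against Ddx24KD, 0.223% for Ddx10KD against Ddx27KD, 1.43% for Ddx10KD against Ddx54KD, 0.0209% for Ddx24KD against Ddx27KD, 0.0558% for Ddx24KD against Ddx54KD and 0.0140% for Ddx27KD against Ddx54KD. The size that such a test would still allow differed by member. For Lama1 the widest difference between knockdowns was 0.13 on the log2 scale and 2 SEs reached at most 0.28. For Hnf4a these were 0.24 and 0.72, for Cxcr4 0.38 and 0.77, for Sox7 0.22 and 0.80, and for Gata6 0.69 and 1.61. The Ddx10KD call for Gata6 is therefore not shown to set that knockdown apart from the other 3.

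Further endoderm genes also moved in both directions. Of 25 primitive and extraembryonic endoderm genes, the listed members aside, 19 were tested: 4 rose and 5 fell in Ddx10KD, 3 and 4 in Ddx24KD, 3 and 3 in Ddx27KD, and 2 and 2 in Ddx54KD, with median log2 changes between -0.13 and -0.04. Together 47.4, 36.8, 31.6 and 21.1% of the 19 were called, where 31.0, 28.1, 33.4 and 24.3% of all tested genes were. With the replicate block 5 rose and 6 fell, 3 and 6, 3 and 4, and 4 and 4. In that fit 44.0, 41.2, 45.8 and 38.9% of all tested genes were called. Apob, an apolipoprotein that visceral endoderm secretes, rose by 1.13, 0.97, 1.21 and 0.93 in the 4 knockdowns. Fst, an activin antagonist, rose by 0.57, 1.15, 0.97 and 0.67. Lrp2, the endocytic receptor megalin, fell by 0.44, 0.53, 0.49 and 0.61. Trf, the iron carrier transferrin, fell by 0.66 in Ddx10KD, by 1.04 in Ddx24KD and by 0.60 in Ddx27KD, and was at -0.42 in Ddx54KD (edgeR adjusted p = 0.0674, and 0.00206 with the replicate block). Secreted and endocytic genes of visceral endoderm thus stood on both sides.

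Of 24 definitive and anterior endoderm genes, 21 were tested: 4 rose and none fell in Ddx10KD, 2 rose and 1 fell in Ddx24KD, 2 rose and 3 fell in Ddx27KD, and 3 rose and none fell in Ddx54KD. Together 19.0, 14.3, 23.8 and 14.3% of the 21 were called without the block, all below the background of 31.0, 28.1, 33.4 and 24.3%. With the replicate block the counts became 7 and 2, 4 and 4, 7 and 4, and 4 and 2. The background in that fit was 44.0, 41.2, 45.8 and 38.9%. There the share in Ddx27KD lay above its background, and those in the other knockdowns lay below. Otx2, a head and anterior visceral endoderm factor that the epiblast also uses, rose by 1.45, 1.49, 1.33 and 0.71. Nodal, the ligand that induces definitive endoderm and that mESCs also make, rose by 0.83, 0.86, 1.05 and 0.73. Krt19, an epithelial keratin, passed the test in Ddx54KD with a rise of 0.55, and with the block also in Ddx27KD (adjusted p = 0.00327). Cyp26a1, which degrades retinoic acid, fell by 1.06 in Ddx27KD, and with the block also in Ddx24KD (adjusted p = 0.0366).

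The basement membrane list held 25 genes beside the members, of which 23 were tested: 7 rose and 4 fell in Ddx10KD, 7 and 4 in Ddx24KD, 8 and 4 in Ddx27KD, and 8 and 3 in Ddx54KD. That is 47.8, 47.8, 52.2 and 47.8% of the list, beside 31.0, 28.1, 33.4 and 24.3% of all tested genes. The block gave 10 and 5, 9 and 6, 10 and 5, and 10 and 4, against a block background of 44.0, 41.2, 45.8 and 38.9%. Plod2, which hydroxylates collagen lysines, rose by 1.18, 1.17, 1.29 and 1.00. Serpinh1, the collagen chaperone, rose by 0.93, 0.57, 0.82 and 0.56. Nid2, a nidogen that links laminin to collagen IV, rose by 0.22, 0.21 and 0.17 in Ddx24KD, Ddx27KD and Ddx54KD and was at 0.08 in Ddx10KD (edgeR adjusted p = 0.112, and 0.0407 with the replicate block). Lamc1, described above with the laminin chains, belongs to this list too.

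All 9 laminin receptor and adhesion genes were tested: 1 rose and 3 fell in Ddx10KD, 2 and 3 in Ddx24KD, 2 and 4 in Ddx27KD, and 3 and 3 in Ddx54KD. The share called was 44.4, 55.6, 66.7 and 66.7%, beside 31.0, 28.1, 33.4 and 24.3% of all tested genes. With the replicate block 2 rose and 5 fell in Ddx10KD, 2 and 5 in Ddx24KD, 3 and 5 in Ddx27KD, and 3 and 3 in Ddx54KD. The block background was 44.0, 41.2, 45.8 and 38.9%. Itgb1, the beta chain of most laminin-binding integrins, fell by 0.22, 0.25, 0.44 and 0.38. Itga5, which pairs with it to bind fibronectin, fell by 0.72, 0.82, 0.81 and 0.52. Bcam, which binds the Lama5 chain, fell by 0.50, 0.46 and 0.36 in Ddx10KD, Ddx24KD and Ddx27KD and was at -0.16 in Ddx54KD (edgeR adjusted p = 0.403). Itgav, a chain of vitronectin and fibronectin receptors, rose by 0.41, 0.40, 0.45 and 0.36.

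Of 16 paralogues and partners of the members, 14 were tested: 4 rose and 3 fell in Ddx10KD, 4 and 2 in Ddx24KD, 3 and 5 in Ddx27KD, and 3 and 2 in Ddx54KD. These are shares of 50, 42.9, 57.1 and 35.7%, beside 31.0, 28.1, 33.4 and 24.3% of all tested genes. With the block 5 and 4, 5 and 3, 4 and 5, and 5 and 3 were called (background 44.0, 41.2, 45.8 and 38.9%). Zfpm2, a cofactor that binds GATA factors, rose by 1.20 (Ddx54KD) to 1.77 (Ddx10KD) from 0.127 TPM in EGFPKD. Lrp1, an endocytic receptor, rose by 1.32, 1.48, 1.80 and 1.37. Dab1, the neuronal paralogue of Dab2, fell by 0.38, 0.31, 0.39 and 0.32.

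The signals that act on endoderm were described from lists for FGF and ERK and for retinoic acid. Of 24 FGF and ERK genes, all tested, 3 rose and 3 fell in Ddx10KD, 7 and 3 in Ddx24KD, 6 and 5 in Ddx27KD, and 3 and 4 in Ddx54KD, and with the replicate block 8 and 6, 9 and 6, 9 and 9, and 5 and 6. Without the block 25, 41.7, 45.8 and 29.2% of this list were called, beside 31.0, 28.1, 33.4 and 24.3% of all tested genes. With the block, here and for retinoic acid below, the background was 44.0, 41.2, 45.8 and 38.9%. Fgfr2, a receptor of primitive endoderm, rose by 0.56, 0.60, 0.61 and 0.52, and Fgfr1, another FGF receptor, by 0.28, 0.29, 0.37 and 0.31. Spry2, a feedback inhibitor, rose by 0.20, 0.28, 0.13 and 0.15, while Mapk3, the kinase ERK1, fell by 0.40, 0.29, 0.29 and 0.26. Of 17 retinoic acid genes, 15 were tested and 1 rose and 1 fell in Ddx10KD, 1 and 1 in Ddx24KD, 3 and 2 in Ddx27KD, and 1 and none in Ddx54KD, and with the block 3 and 2, 2 and 2, 4 and 3, and 3 and none. The shares without the block, 13.3, 13.3, 33.3 and 6.67%, were below the background except in Ddx27KD, where they were level with it. Nrip1, a nuclear receptor corepressor, rose by 0.66, 0.68, 0.49 and 0.59, and Stra8, which retinoic acid induces, fell by 1.33 in Ddx10KD and by 1.21 in Ddx24KD, fell also in Ddx27KD (edgeR adjusted p = 0.00577) and was at -0.48 in Ddx54KD (edgeR adjusted p = 0.336).

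Markers of other cell types that use Sox7, Cxcr4 or Gata6 were read in the same libraries. Of 12 endothelial genes, 11 had counts in every library and Emcn had none in any. Cdh5, the endothelial cadherin, had 3 to 10 counts per library. The summed level of the 12 was 139.7 to 163 CPM in EGFPKD, 185 to 238 in Ddx10KD, 167 to 226 in Ddx24KD, 185 to 236 in Ddx27KD and 186 to 247 in Ddx54KD, most of it Pecam1, which mESCs express. Among the 9 tested, 5 rose and 1 fell in Ddx10KD, 4 and 1 in Ddx24KD, 2 and none in Ddx27KD, and 4 and none in Ddx54KD, which is 66.7, 55.6, 22.2 and 44.4%, beside 31.0, 28.1, 33.4 and 24.3% of all tested genes. With the replicate block the counts were 7 and 1, 5 and 1, 5 and 1, and 4 and 1 (background 44.0, 41.2, 45.8 and 38.9%). Kdr, the vascular endothelial growth factor receptor, rose by 1.70, 1.70, 1.87 and 1.22, and Tek, the angiopoietin receptor, by 1.56, 1.53, 1.85 and 1.57. Mean Tek was 11.6 CPM in EGFPKD and 34.2, 33.3, 41.7 and 34.3 in the knockdowns. Mean Pecam1 was 108 CPM in EGFPKD and 138, 120, 129 and 147 in the knockdowns. Pecam1 was therefore most of the summed level, but not all of its rise. Vwf, the von Willebrand factor, fell by 0.58 in Ddx10KD and by 0.45 in Ddx24KD, and with the block also in Ddx27KD and Ddx54KD (edgeR adjusted p = 0.0258 and 0.0156). Egfl7 was at 0.23, -0.12, 0.02 and 0.00 with no call, but with the block it rose in Ddx10KD (edgeR adjusted p = 0.0138). Kdr, Tek, Vwf, Egfl7 and Pecam1 are named after their values were seen. The 10 mesoderm markers summed to 15.3 to 18.3 CPM in EGFPKD and 18.3 to 32.9 in the knockdowns, with Msgn1 at 0 throughout. Kdr is on this list too, and without it the other 9 summed to 12.5 to 14.8 and 12.5 to 19.7 CPM. The 10 trophoblast markers summed to 111 to 141 CPM in EGFPKD and 138 to 211 in the knockdowns, most of it Tfap2c (78.4 to 175 CPM over all libraries). The 8 blood markers summed to 7.32 to 8.21 and 8.17 to 10.6 CPM, with Hbb-bh1 and Hba-x at 0. The 8 neural markers summed to 135 to 165 and 108 to 146 CPM, most of it Tubb3 (70.6 to 122 CPM over all libraries). Fibroblast markers summed to 21.5 to 27.7 CPM in EGFPKD and 16.1 to 21.5 in the knockdowns, with Postn at 0 and Col3a1, Dcn and Lum at 3 counts or fewer in every library. Among them Thy1 alone had 8.08 to 20.5 CPM over all libraries. Whether these levels have a part in the changes of Cxcr4, Sox7 or Gata6 was not tested.

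For each member with a mean of at least 1 TPM, the genes whose log2 CPM followed it most closely over the 15 libraries were taken from all tested genes. The libraries fall into 5 groups, so a high correlation reflects group means as well as replicates and is given as a description. Cxcr4 was closest to Tnks2, a tankyrase (Pearson r = 0.985), and Ly6g6e (0.983). Lama1 was closest to Cflar, an inhibitor of death-receptor signalling (0.932), and Phb, a mitochondrial prohibitin (0.929). Lamb1 was closest to Zbtb43 (0.925) and Snhg12, a snoRNA host gene (0.905), and Gata6 to Col4a2, a collagen IV chain of basement membranes (0.900), and Spats2l (0.874). Dab2, closest to Lix1 (0.793) and Lats2, a Hippo pathway kinase (0.780), had the weakest neighbours of the 5. Col4a2 stood at 5.18 ± 0.637 CPM in EGFPKD and 8.06 ± 0.854 in Ddx10KD, where it rose by 0.64 (edgeR adjusted p = 0.0192).

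In the authors' deposited table of each comparison, a ratio and a posterior probability of differential expression are given per gene. In the authors' deposited tables Hnf4a had ratios of 3.37, 2.55, 2.84 and 2.97 in Ddx10KD, Ddx24KD, Ddx27KD and Ddx54KD, with probabilities of 1.00, 1.00, 0.999 and 0.0139. For Cxcr4 the authors' deposited tables gave 2.66, 1.98, 2.49 and 2.04 with probabilities of 0.788, 2.61e-08, 1.00 and 1.00. Sox7 had ratios of 0.570, 0.439, 0.526 and 0.551 in the authors' deposited tables, with probabilities of 8.70e-11, 0.999, 2.61e-10 and 5.45e-11. Lama1 had 0.770, 0.738, 0.777 and 0.761 in the authors' deposited tables, each with a probability of 1.00. Gata6 had 2.69, 2.62, 2.45 and 1.67 in the authors' deposited tables, with probabilities of 0.906, 0.926, 0.284 and 0.309. Hnf4a in Ddx54KD thus had a probability near 0 beside a ratio as large as those near 1 in the other 3, while Lama1 was near 1 in all 4. Sox7 had a probability near 0 in Ddx10KD, Ddx27KD and Ddx54KD. Its fall, called here in all 4 knockdowns, thus had a high probability in the authors' deposited Ddx24KD table alone. Cxcr4 had a probability near 0 in Ddx24KD alone, and 0.788 in Ddx10KD. The Ddx24KD ratios follow the deposited libraries less closely than the others (86.6% of genes within 0.1 on the log2 scale, and 99.98% in each other table).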

How the data were processed

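Poly(A) RNA of 15 libraries (5 groups of 3) was quantified by the authors; the submitters' processing notes name RSEM and mm10, and the aligner and tool versions were not given in the sources used here. The deposited expected counts are estimates that need not be whole and were rounded here; the deposited TPM values are scaled by the authors to transcript length and depth. The authors' deposited tables of each comparison give a ratio (fold, posterior) and a posterior probability, which is used as a score. Depth was 26836946 to 27708782 counts per library, and the tested genes held 99.97% of them.

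With edgeR 4.0.16 in R 4.3.3, counts were filtered by filterByExpr, scaled by TMM and fitted in 1 quasi-likelihood model of all 15 libraries, with p-values adjusted by Benjamini-Hochberg over 14335 genes and called under 0.05. CPM used the TMM-scaled library sizes. Replicates differed beyond counting noise in every group. Replicate numbers pair the libraries by the data: same-number libraries deviated together in 30 of 30 group pairs (r from 0.106 to 0.335), and all 15 libraries were closest to their own number; the labels do not say what a number shares. A fit with that number as a block was therefore made, and its value is given where it changes the call of a member or of another gene named as not called, or the count of a list.

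The members and the gene lists were chosen with earlier results of these data known. Text names all 10 members, up to 4 genes of each other list with the smallest p over the 5 groups among those called, the 2 genes most like each member of at least 1 TPM, and the 4 targets; others are marked as chosen after their values were seen. Other settings tried were DESeq2 1.42.0, limma-voom (limma 3.58.1), upper-quartile or RLE scaling, other count filters, a stricter p, a 1.5-fold minimum, log2(TPM + 0.5), each comparison alone and each library left out. Promoter sequences and motif shares came from RefSeq (GRCm38.p6). Some items are not reported here.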

Additional observations from a re-analysis of the deposited data

How the results depend on the processing

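Hnf4a, Cxcr4 and Lama1 kept their direction and an adjusted p under 0.05 in all 60 leave-one-out fits each (15 libraries by 4 comparisons, highest adjusted p 0.00547, 0.0211 and 0.0120), and Sox7 in 49 of 60. Most of these fits left out a library of neither compared group, which hardly moves the estimate, so they test little. Every lost Sox7 call came from a fit without a library of a compared group. The values counted next include such fits too. Of 906 single-member values with a test under the alternatives, 850 kept direction and side of the threshold, 25 lost a call, 11 gained one and 20 changed sign; the cause was not tested. Of 36 values on the log2(TPM + 0.5) scale, which have no test, 11 moved by more than the replicate SD. These were Hnf4a and Sox7 in all 4 knockdowns, Cxcr4 in Ddx10KD and Ddx24KD, and Sox17 in Ddx24KD. Sox7 went from -0.81, -1.03, -0.93 and -0.86 to -0.46, -0.59, -0.54 and -0.52 in Ddx10KD, Ddx24KD, Ddx27KD and Ddx54KD. Gata4 in Ddx10KD, not among the 11, went from -0.04 to 0.0035. RLE and upper-quartile scaling and DESeq2 put the median change of all genes at most at 0.02 on the log2 scale.

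Counts of all genes called in Ddx10KD, Ddx24KD, Ddx27KD and Ddx54KD, which were 4438, 4026, 4788 and 3483, became 2673, 2310, 3039 and 1860 at adjusted p under 0.01, and 1506, 1345, 1609 and 1084 with a 1.5-fold minimum, as both ask more of each gene. For Ddx54KD the replicate block gave 5570, leaving out the 5 libraries of number 2 (chosen after seeing the data) gave 2161, and leaving out single libraries 2232 (without Ddx54KD replicate 3) to 3868. The block changed member calls only for Gata6 in Ddx27KD and for Lamb1 in Ddx10KD and Ddx54KD. With a filter of 10 CPM, 1 member was called in each of the 4 comparisons, since Lama1 and Lamb1 alone passed it. In Ddx10KD 3 members were called at adjusted p under 0.01, and 3 to 5 over the leave-one-out fits, with 3 without EGFPKD replicate 1, EGFPKD replicate 3 or Ddx10KD replicate 2. Without the libraries of number 2, Gata6 was called in Ddx24KD (1.47, adjusted p = 0.0152), and Sox7 was not called in Ddx10KD (-0.79) or Ddx54KD (-0.55). Gata6 in Ddx10KD was not called by limma-voom (adjusted p = 0.0556).

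Every change of sign in a tested value was of a member not called: leaving out 1 library moved Gata4 from -0.40 to 0.27 in Ddx10KD, -0.12 to 0.37 in Ddx24KD and -0.064 to 0.48 in Ddx27KD, Sox17 from -0.26 to 0.72 in Ddx10KD and -0.20 to 0.78 in Ddx54KD, and Dab2 from -0.065 to 0.29 in Ddx10KD, -0.069 to 0.29 in Ddx24KD and -0.17 to 0.19 in Ddx54KD. Without the libraries of number 2, Sox17 was at -0.10, -0.12 and -0.21 in Ddx10KD, Ddx27KD and Ddx54KD. Leaving out 1 library moved Sox17 in Ddx24KD from 0.33 to 1.30, with a call without EGFPKD replicate 3. Foxa2, with 2 to 10 counts per library, was under the count filter.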

Other observations

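The Ddx24KD comparison stood apart in the authors' deposited tables. Over 12447 genes, the deposited ratio lay within 0.1 on the log2 scale of the ratio of library means for 99.98% of genes in Ddx10KD, Ddx27KD and Ddx54KD and for 86.6% in Ddx24KD, where the widest difference was 1.08. In the authors' deposited table for Ddx24KD, Gata6 had a ratio of 2.62, Hnf4a 2.55, Sox7 0.439 and Foxa2 1.04, where the ratios of library means were 1.90, 2.94, 0.487 and 1.85. The cause was not tested.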
